A study of Mus musculus with 2 samples.

Results

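The genes described here are 3 chemokines that recruit neutrophils, Cxcl1, Cxcl2 and Cxcl3, and 2 chemokine receptors carried by neutrophils, Cxcr2 and Cxcr4. They were taken from the count matrices by gene symbol and are 5 of the 32285 genes measured. Single-cell RNA sequencing was performed on cells sorted for CD45, the surface protein of leukocytes, from MC38 tumors, which are grafts of a mouse colon carcinoma line. The Control library came from untreated tumors of WT mice and the IR library from tumors of WT mice that had received 1 dose of 20 Gy ionizing radiation 4 days earlier. Each library pooled several tumors and there was 1 library per group, so no difference below has a replicate check and no test was run. The sample records also carry the narrower cell label CD45+CD11b+Ly6Chi, although T cells, NK cells and other lineages outside that label were present in both libraries.

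CXCL1, CXCL2 and CXCL3 are small secreted proteins that bind the receptor CXCR2 and draw neutrophils from the blood into inflamed tissue. Macrophages, monocytes, stromal cells and neutrophils themselves can release them, and their transcription is classically driven by NF-kB after signals from interleukin-1, tumor necrosis factor or Toll-like receptors. CXCR4, the receptor for CXCL12, holds neutrophils and monocytes in the bone marrow, and in neutrophils its surface level is known to go up with age as that of CXCR2 goes down.

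The ligand genes lie together on chromosome 5 of the mouse genome (GRCm38, GENCODE vM21), all on the plus strand, with Cxcl3 at chr5:90786103-90789600, Cxcl1 at chr5:90891241-90893115 and Cxcl2 at chr5:90903871-90905938. The receptor genes lie on chromosome 1, Cxcr2 at chr1:74153989-74161246 on the plus strand and Cxcr4 at chr1:128588199-128592293 on the minus strand. The 100 bases before the start of each ligand gene are shown because the 3 promoters share a stretch of letters of the NF-kB type. The motif searched was GGGNNTTTCC on both strands, within the 250 bases before the RefSeq start, and its matches are in capitals. The windows are RefSeq sequence of GRCm38.p6, plus strand, at chr5:90891141-90891240 for Cxcl1, chr5:90903771-90903870 for Cxcl2 and chr5:90786001-90786100 for Cxcl3. The Cxcl1 and Cxcl2 windows run up to the GENCODE start and end 4 and 28 bases before the RefSeq start. The Cxcl3 window runs up to the RefSeq start.
Cxcl1: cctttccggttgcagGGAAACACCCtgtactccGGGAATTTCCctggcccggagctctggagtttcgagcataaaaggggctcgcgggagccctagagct
Cxcl2: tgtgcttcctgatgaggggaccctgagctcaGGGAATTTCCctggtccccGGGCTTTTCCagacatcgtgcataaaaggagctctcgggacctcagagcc
Cxcl3: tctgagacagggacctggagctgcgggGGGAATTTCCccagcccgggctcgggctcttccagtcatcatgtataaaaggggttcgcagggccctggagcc
The letters GGGAATTTCC stood in all 3 ligand promoters, beginning 71 bases before the RefSeq start in Cxcl1, 97 in Cxcl2 and 73 in Cxcl3. Cxcl1 held another match, GGGTGTTTCC read on the minus strand, and Cxcl2 held another, GGGCTTTTCC on the plus strand. The minus-strand match appears in the Cxcl1 window as its reverse complement. Neither the Cxcr2 nor the Cxcr4 window held the motif, which was present in 464 of 32851 promoters of the same length (1.41%). A match describes letters in the window and is not evidence of binding.

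After filtering, the Control library held 4740 cells and 37355437 UMIs, and the IR library 3363 cells and 33462806 UMIs, with medians of 6473 and 7493 UMIs per cell. Counts are of UMIs, tags that let copies of the same captured molecule be counted once, and levels are given as CPM, the UMIs of a gene scaled to 1e+06 UMIs of the same cells. CPM takes no account of transcript length, because the reads come from the 3' end, so levels are compared between cells and not between genes. Each cell was placed in a gate from lists of marker genes that did not include the members. Cells that also scored for another lineage were kept apart as a mixed class. Intervals are exact 95% intervals and cover counting error only. The 2 libraries shared 7 barcodes of at least 500 UMIs.

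The neutrophil gate held 32 Control cells (0.675% of cells, interval 0.462% to 0.952%) and 160 IR cells (4.76%, 4.06% to 5.53%). All 8 neutrophil markers were detected in it, led by S100a9 at 40821 CPM in Control and 37419 CPM in IR, while Ly6g gave only 3 and 12 UMIs. The monocyte gate held 722 and 1239 cells and the macrophage gate 2184 and 446. The fibroblast gate, with 131 and 113 cells, was led by Col3a1, Sparc and Bgn and had Ptprc, the gene of CD45, at 6.47 CPM in Control and 3.56 CPM in IR. Ptprc was at 465 and 483 CPM over all cells, so the fibroblast-gate cells do not match the CD45 sort. Their 10 leading genes also held Tubb3 and Tm4sf1, and whether they were stromal or tumor cells was not tested.

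Over all cells of a library, the 3 ligands and Cxcr2 were higher in IR and Cxcr4 was nearly level. Cxcl2 was at 1868 CPM in Control (1854 to 1882) and 4363 CPM in IR (4340 to 4385). Cxcl3 went from 96.9 CPM to 438 CPM and Cxcl1 from 50.6 CPM to 93.2 CPM. Cxcr2 was rare, with 76 UMIs in Control and 412 in IR, or 2.03 CPM and 12.3 CPM. Cxcr4 was at 121 CPM and 132 CPM. As log2 ratios, IR over Control, these were 1.22 for Cxcl2 (1.21 to 1.24), 2.18 for Cxcl3 (2.12 to 2.23), 0.88 for Cxcl1 (0.80 to 0.97), 2.60 for Cxcr2 (2.24 to 2.97) and 0.13 for Cxcr4 (0.07 to 0.19). Cxcl2, Cxcl3 and Cxcr2 were past a fold of 2, which makes 3 of 5 members higher and 0 lower. Of 14019 genes with at least 20 UMIs, 5.89% were past that fold in the same direction and 2.61% in the other. In such sums, more cells of a type and more RNA per cell cannot be told apart, so the gates are given next.

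**Figure D1:**
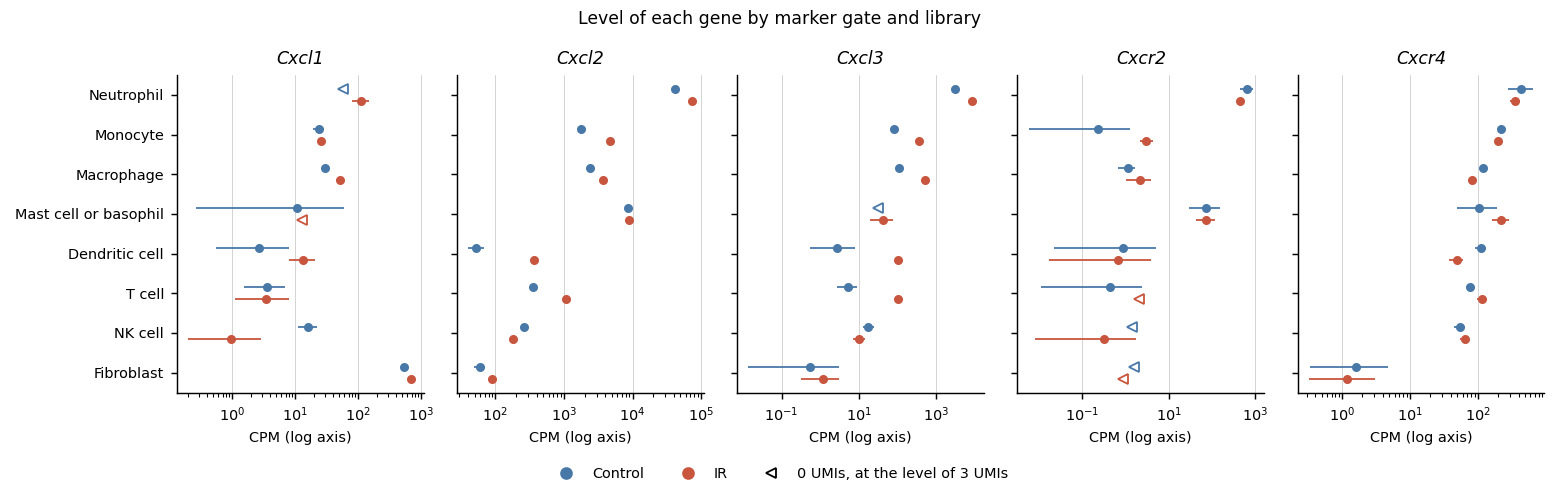
Level of each gene in CPM (log axis) in 8 marker gates, with 1 point per library (Control blue, IR red), exact 95% Poisson intervals as bars and open triangles at the level of 3 UMIs where a gene had 0 UMIs. Cxcl2, Cxcl3 and Cxcr2 are highest in the neutrophil gate of either library, and Cxcl1 in the fibroblast gate, at 539 and 693 CPM.

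Cxcl1 was highest in the collagen-expressing cells. In the fibroblast gate it was at 539 CPM in Control (506 to 574) and 693 CPM in IR (665 to 722). The gate held 2.76% of Control cells and 3.36% of IR cells, and yet 53.0% of the Cxcl1 UMIs of Control and 74.9% of those of IR. The ratio in the gate was 0.36 on the log2 scale (0.25 to 0.47), well short of a 2-fold difference. These cells fell into a deep cluster led by Col3a1, with 69 Control and 87 IR cells at 560.0 and 699 CPM, and a shallow cluster led by Dcn. The shallow cluster held 61 Control and 26 IR cells of the gate and only 1 and 2 UMIs of Cxcl1. When each cell weighed the same, whatever its depth, the log2 ratio was 1.21, and the shallow cells then counted in full were 46.6% of the gate in Control and 23.01% in IR.

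Among leukocytes Cxcl1 was low and held by few cells. The macrophage gate was at 29.9 CPM in Control and 50.6 CPM in IR (log2 ratio 0.76, 0.54 to 0.98, but 0.12 with an interval of −0.11 to 0.35 when macrophages were taken by clusters). The monocyte gate was at 23.5 and 25.8 CPM (0.14, −0.19 to 0.47, an interval that holds 0). The neutrophil gate had 0 UMIs in Control and 43 in IR, which were carried by 3.13% of its 160 IR cells. Against a floor of 3 UMIs over the Control gate this is at least 1.93-fold higher, and the 32 Control cells could not have shown a level as low as that of the monocytes. In the macrophage and monocyte gates of both libraries, all Cxcl1 UMIs lay in the top 10% of cells. The NK gate had 34 UMIs in Control, carried by 0.692% of its cells, and 3 UMIs in IR. Cxcl1 was thus not detectable at this depth in most leukocytes of either library.

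Cxcl2 was most abundant in the neutrophil gate, where it was at 41869 CPM in Control (40136 to 43658) and 74311 CPM in IR (73456 to 75173). The log2 ratio was 0.83 (0.77 to 0.89). Nearly every neutrophil-gate cell carried it: after thinning each cell to 1000 UMIs, a UMI of Cxcl2 was found in 25 of 26 Control cells and 151 of 152 IR cells, the medians being 25.5 and 74 Cxcl2 UMIs of each 1000. A wider grouping of these cells gave lower levels. In the cluster led by S100a9, made without the members, Cxcl2 was at 24704 CPM in 47 Control cells and 32742 CPM in 276 IR cells, a log2 ratio of 0.41. TMM scaling, which shifted all log2 ratios of the neutrophil gate up by 0.25, gave 1.08.

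The monocyte gate had the larger difference in Cxcl2, with 1760.3 CPM in Control and 4729 CPM in IR (log2 ratio 1.43, 1.39 to 1.46). The macrophage gate was at 2364 and 3741 CPM (0.66, 0.64 to 0.69). The gates were not made of the same clusters in both libraries. Of the Control monocyte gate, 26.7% lay in a cluster led by Hp and 25.6% in a cluster led by Cxcl9, while 35.6% of the IR monocyte gate lay in a cluster led by Slpi. Within each of these clusters the monocyte-gate cells were higher in IR. Cxcl2 went from 1177 to 2228 CPM in the Hp cluster, from 2570.1 to 7680 CPM in the Cxcl9 cluster and from 3179 to 7303 CPM in the Slpi cluster. In macrophage-gate cells of the cluster led by Hbb-bs, Cxcl2 was at 197 and 681 CPM, and in those of the cluster led by Mmp12 at 1315 and 4178 CPM. In those led by Retnla it was at 3143 and 2631 CPM, so the direction was not the same in every macrophage cluster.

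Mast cells or basophils came next after neutrophils in Cxcl2. Their gate was at 8647 CPM in Control (36 cells) and 8888 CPM in IR (64 cells), and the interval of the log2 ratio, −0.08 to 0.16, held 0. Cells of the Control gate were uneven, with 87.0% of the Cxcl2 UMIs in 4 cells. Among the 8 gates with at least 30 cells in both libraries, the order in Control was neutrophil, mast cell or basophil, macrophage, monocyte, T cell, NK cell, then fibroblast and dendritic cell, whose intervals overlapped. In IR the monocyte gate stood above the macrophage gate.

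Lymphocyte gates carried little Cxcl2 and most of it in few cells. The T cell gate was at 349 CPM in Control and 1058 CPM in IR, with 93.0% and 97.1% of those UMIs in the top 10% of cells. Of the Cxcl2 UMIs of the gate, 663 of 795 in Control and 1195 of 1573 in IR lay in 38 and 18 cells of a cluster led by Tnfrsf4 that no gate name was given to, which also took up 188 of the 432 mixed-class cells of IR. The cluster led by Cd3g, which separates cells by more genes than the gate does, had 59.9 and 143 CPM. Free RNA, estimated from macrophage C1q transcripts in the T cell gate and the profile of barcodes with 10 to 100 UMIs, would supply 54.2 CPM in Control and 138 CPM in IR. That estimate is for the whole gate, with its cells of the Tnfrsf4 cluster, and was not made for the Cd3g cluster. The NK gate was at 263 and 181 CPM (log2 ratio −0.54, −0.71 to −0.37). That direction turned to 0.40 when cells with markers of more than 1 lineage were put back into their best gate.

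Cxcl3 had the largest ratio of the ligands and the same direction in each gate of myeloid cells. It was at 3165 CPM in Control neutrophil-gate cells (2702 to 3685) and 8872 CPM in IR (8578 to 9173), a log2 ratio of 1.49 (1.26 to 1.72). The monocyte gate went from 81.4 to 363 CPM (2.16, 2.001 to 2.32) and the macrophage gate from 111 to 526 CPM (2.24, 2.16 to 2.33). More cells carried a UMI of it. Among cells thinned to 1000 UMIs, Cxcl3 was found in 38.5% of Control neutrophil-gate cells (20.2% to 59.4%) and 73.7% of IR cells (65.9% to 80.5%). In the monocyte gate the share was 2.30% and 10.8%, and in the macrophage gate 3.83% and 16.5%. The fibroblast gate, thinned alike, had 0 of 90 and 0 of 100 cells with a UMI (exact upper limits 4.02% and 3.62% at that depth). Without thinning, the shares were 40.6% and 78.1% in the neutrophil gate and 0.763% and 3.54% in the fibroblast gate.

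Within clusters the Cxcl3 difference stood as well. Monocyte-gate cells of the Slpi cluster were at 205 CPM in Control and 536 CPM in IR, those of the Hp cluster at 10.8 and 55.4 CPM and those of the Cxcl9 cluster at 95.1 and 253 CPM. Macrophage-gate cells of the Mmp12 cluster were at 270.2 and 747 CPM and those of the Hbb-bs cluster at 63.6 and 484 CPM. The Retnla cluster was at 21.1 and 97.5 CPM, so Cxcl3 was higher in IR in each macrophage cluster named here, also where Cxcl2 was not. Dendritic cells had 3 UMIs in Control and 156 in IR, where 4.83% of the gate's cells carried one. The clusters led by Fscn1 and Cd209a, with 124 and 18 of the 145 IR cells of that gate, held 10 and 2 of the 156, so nearly all lay in the other 3 cells. The same clusters held 129 and 15 of the 523 Cxcl2 UMIs of the IR dendritic gate. The T cell gate had 12 Cxcl3 UMIs in Control and 152 in IR, of which 132 lay in 18 cells of the unnamed cluster led by Tnfrsf4.

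**Figure D2:**
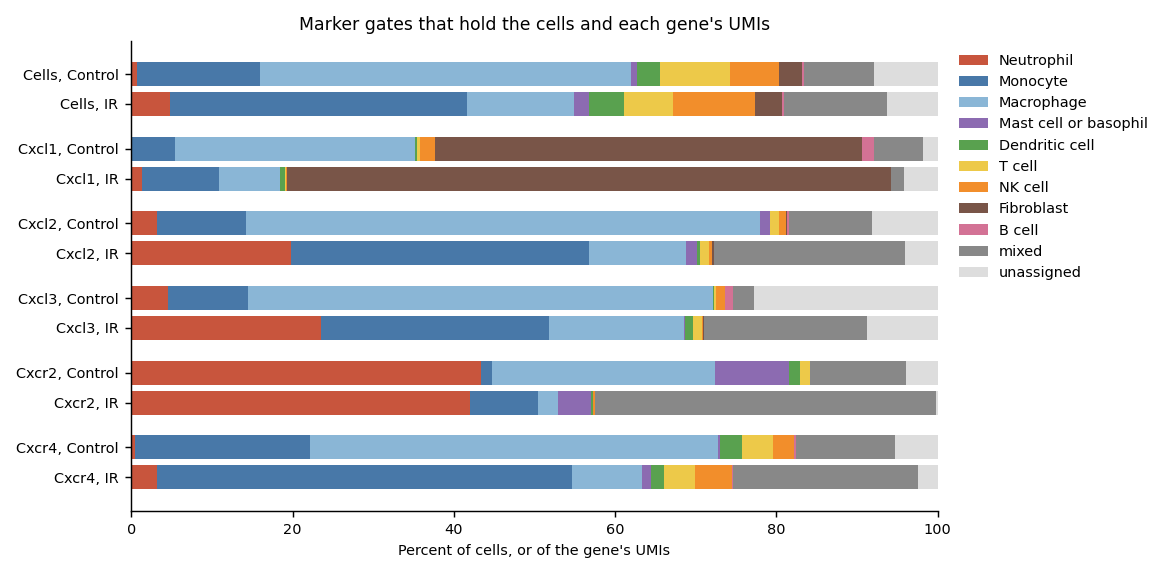
Stacked bars of the percent of cells (top pair) and of each gene's UMIs in each marker gate, for the Control and the IR library. The fibroblast gate holds 53.0% and 74.9% of Cxcl1 UMIs, the neutrophil gate 3.15% and 19.8% of Cxcl2 UMIs, and the macrophage gate 63.8% and 11.95% of Cxcl2 UMIs.

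The gates that held the ligands' UMIs differed between the libraries. Macrophage-gate cells held 63.8% of Cxcl2 UMIs and 57.7% of Cxcl3 UMIs in Control, and 11.95% and 16.7% in IR. Monocyte-gate cells held 11.1% and 9.86% in Control, and 37.0% and 28.3% in IR. Neutrophil-gate cells, at 4.76% of IR cells and 1.16% of IR UMIs, held 19.8% of the Cxcl2 and 23.5% of the Cxcl3 of that library. In Control they held 3.15% and 4.58%. The mixed class held 10.3% of Cxcl2 and 2.60% of Cxcl3 in Control, and 23.7% and 20.2% in IR. Of its IR UMIs, 15369 of 34566 for Cxcl2 and 1771 of 2968 for Cxcl3 lay in 81 cells of the S100a9 cluster. That whole cluster, with 276 IR cells, held 50672 of 145982 Cxcl2 UMIs and 5677 of 14658 Cxcl3 UMIs of IR. In Control its 47 cells held 2964 of 69771 and 217 of 3621. The neutrophil gate is thus the narrower grouping of these cells.

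Cxcr2, the receptor for the 3 ligands, marked the neutrophil gate. It was at 629 CPM in Control (33 UMIs, 433 to 884) and 445 CPM in IR (173 UMIs, 381 to 517), and the log2 ratio of −0.50 had an interval that held 0 (−1.04 to 0.08). A UMI was found in 11 of 26 Control cells and 44 of 152 IR cells thinned to 1000 UMIs, or 42.3% (23.4% to 63.1%) and 28.9% (21.9% to 36.8%). Without thinning the shares were 50% and 49.4%, in cells with medians of 1688 and 2393 UMIs. Thinned to 2000 UMIs, 2 of 5 Control cells and 51 of 103 IR cells had a UMI. The direction of the share thus changed with the depth used. The 6.05-fold higher all-cell level of Cxcr2 in IR was thus not seen per neutrophil-gate cell. The S100a9 cluster included 32 Control and 159 IR cells of the gate, so it is no separate check. Its Cxcr2 was at 300.0 CPM in Control and 215 CPM in IR.

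Outside neutrophils, Cxcr2 was found in mast cells or basophils, at 73.4 and 71.3 CPM, though from only 7 and 17 UMIs. Macrophage-gate cells had 21 UMIs in Control and 10 in IR. Monocyte-gate cells had 1 UMI in Control and 35 in IR, a ratio of 13.4 whose log2 interval ran from 1.17 to 9.09. Of those 35 UMIs, 23 lay in 25 cells of the S100a9 cluster, and the defining neutrophil markers were at 76.9 CPM in the Control monocyte gate and 186 CPM in the IR gate, summed over the list. The mixed class had 9 UMIs in Control and 174 in IR, of which 133 lay in 81 cells of the S100a9 cluster, and the neutrophil marker list summed to 239.6 CPM there in Control and 3409 CPM in IR. The part of neutrophil RNA in these values was not tested. The fibroblast gate had 0 UMIs of Cxcr2 in both libraries, with exact upper limits of 1.99 CPM in Control and 1.09 CPM in IR.

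Cxcr4 was spread over all leukocyte gates. In Control it was highest in the neutrophil gate at 439 CPM (278 to 658), followed by the monocyte gate at 224 CPM (209.7 to 238). Macrophages at 121 CPM, dendritic cells at 111 CPM and mast cells or basophils at 104.8 CPM had overlapping intervals. T cells at 77.3 CPM and NK cells at 54.0 CPM came lower, though the interval of the few mast cells or basophils (50.3 to 192.8) held both values, and the fibroblast gate had 3 UMIs. Differences between the libraries were of both signs, and past a fold of 2 in dendritic cells and in mast cells or basophils. The neutrophil gate was at 358 CPM in IR (log2 ratio −0.29, −0.94 to 0.41) and the monocyte gate at 199 CPM (−0.17, −0.28 to −0.06). Macrophages were at 82.1 CPM in IR (−0.56, −0.72 to −0.41) and dendritic cells at 48.9 CPM (−1.18, −1.62 to −0.75). T cells, in contrast, were at 114 CPM in IR (0.56, 0.25 to 0.88) and mast cells or basophils at 218 CPM (1.06, 0.07 to 2.20). Among T cells, the cluster led by Il17a had the highest level, with 261 CPM in 74 Control cells and 479.7 CPM in 37 IR cells. The dendritic gate was mostly cells of the cluster led by Fscn1 (85.3% and 85.5%), at 129.9 and 55.3 CPM. The cluster led by the dendritic marker Cd209a had 66 and 95 of its cells in the monocyte gate. As a whole it was at 101 CPM (82.0 to 122) and 76.9 CPM (63.4 to 92.4).

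**Figure D3:**
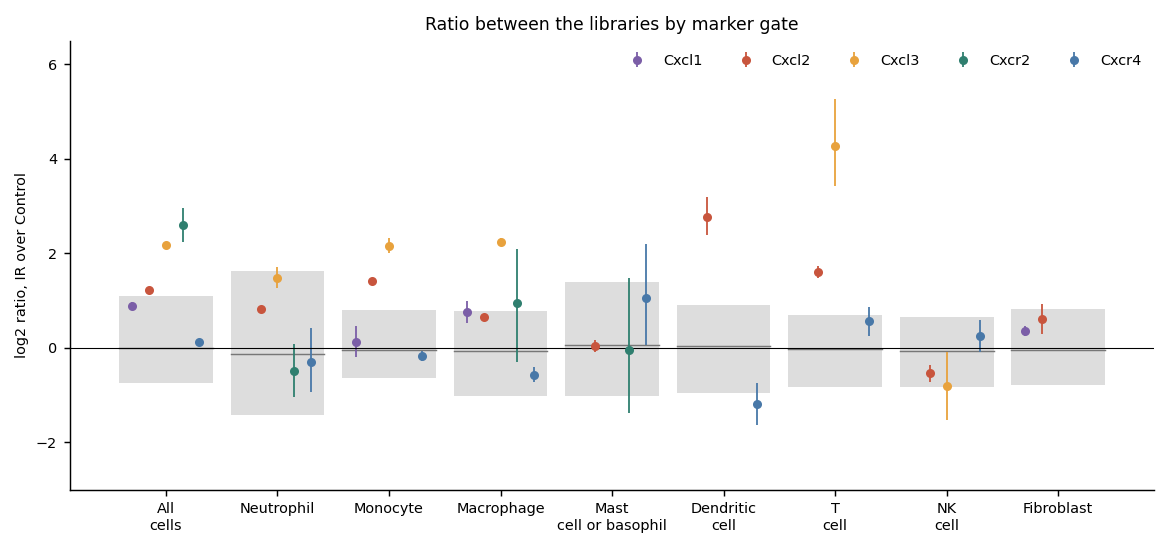
Log2 ratio of CPM, IR over Control, of each gene in all cells and in 8 marker gates, with exact 95% conditional intervals, for genes with at least 20 UMIs and more than 3 in each library. Grey boxes span the 5% to 95% range of all genes with at least 20 UMIs and the grey line is their median, and Cxcl3 lies above the box in the monocyte, macrophage and T cell gates but within it in the neutrophil gate.

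The members were then set against all genes. In the neutrophil gate 1 of 5 members, Cxcl3, was past a fold of 2 in the IR direction and 0 in the other, where 12.1% and 13.7% of 2047 genes were past it in a gate of few cells. In the monocyte gate 3 of 5 members, Cxcl2, Cxcl3 and Cxcr2, were past it and 0 in the other direction, against 3.34% and 1.41% of 10778 genes. In the macrophage gate 1 of 5 members, Cxcl3, was past it and 0 in the other direction, against 3.22% and 5.06% of 11518 genes. The median of the 5 members was 0.83 in the neutrophil gate, 1.43 in the monocyte gate and 0.76 in the macrophage gate, beside medians of all genes of −0.14, −0.04 and −0.07.

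**Figure D4:**
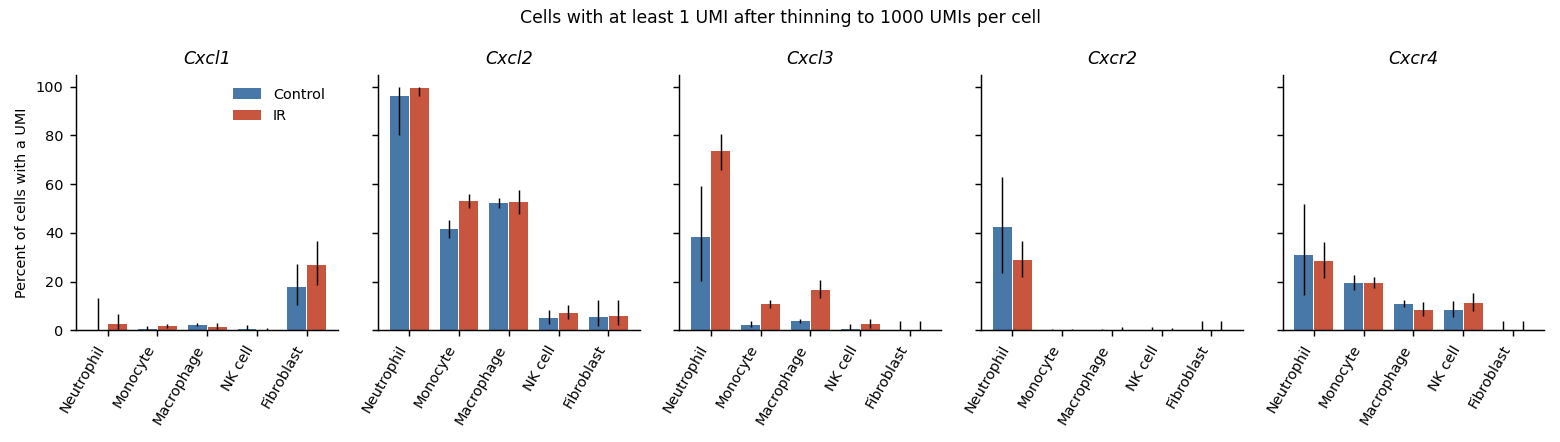
Percent of cells with at least 1 UMI of each gene after each cell was thinned to 1000 UMIs, in 5 marker gates, with exact 95% binomial intervals as bars (Control blue, IR red). Cxcl2 is found in 96.2% and 99.3% of neutrophil-gate cells, and Cxcr2 above 1% in that gate only among the 5 shown.

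The members varied together within monocytes and macrophages to different degrees. Among IR monocyte-gate cells thinned to 1000 UMIs, those with 0 UMIs of Cxcl2 (571 cells) had Cxcl3 at 52.5 CPM, those with 1 to 4 UMIs (272 cells) at 279 CPM and those with 5 or more (375 cells) at 853 CPM. The same order was found for Cxcl3 in Control monocyte-gate cells, at 2.46, 44.6 and 420.5 CPM. Cxcl1 followed it too, at 1.75, 18.4 and 61.3 CPM in IR monocyte-gate cells, although from 1, 5 and 23 UMIs. Cxcr4 differed less in these IR monocyte-gate cells, at 203, 243 and 291 CPM. In IR macrophage-gate cells grouped alike, Cxcr4 was at 51.3, 113 and 176 CPM, from 10, 11 and 21 UMIs. Cxcl3 was at 221, 526 and 739 CPM there. In Control macrophage-gate cells Cxcr4 was at 74.0, 185 and 217 CPM and Cxcl3 at 6.09, 112 and 476 CPM. A lesser difference of Cxcr4 was thus not seen in the macrophage gate of IR. Cells of 1 library are not replicates, so these are descriptions of the libraries.

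Within the neutrophil gate the 2 receptors were read in the same thinned cells. In Control, 4 of 26 cells had UMIs of both Cxcr2 and Cxcr4, 7 of Cxcr2 only, 4 of Cxcr4 only and 11 of neither. In IR, 12 of 152 cells had both, 32 had Cxcr2 only, 31 had Cxcr4 only and 77 neither. At this depth most neutrophil-gate cells of either library showed at most 1 of the receptors. Cxcr2 was found in 44 and Cxcr4 in 43 of the 152 IR cells. At such rates few cells hold both, also if the receptors are unrelated. A receptor without a UMI may still have been expressed.

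**Figure D5:**
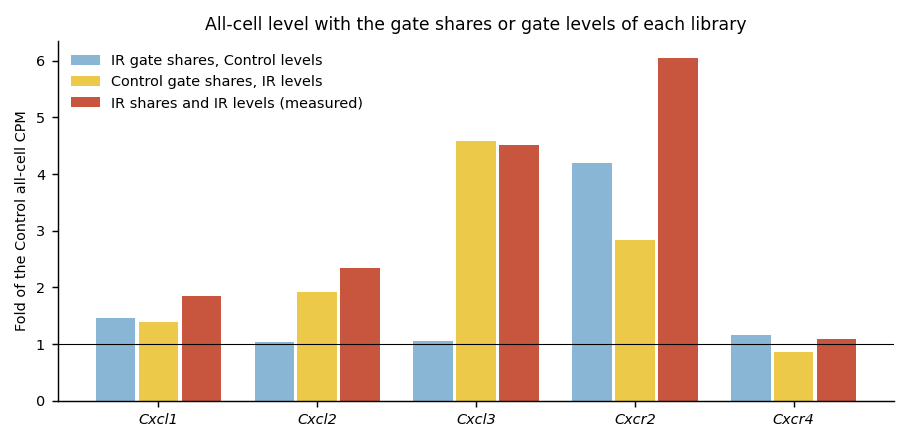
Fold of the Control all-cell CPM of each gene when the IR gate shares are combined with Control levels (blue), Control gate shares with IR levels (yellow), or both from IR (red, the measured fold). For Cxcl3 the fold is 1.05 with the shares alone and 4.58 with the levels alone, the mixed class being counted as a gate.

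How much of the all-cell difference went with the make-up of the sample was read by arithmetic. With the gate shares of IR and the gate levels of Control, Cxcl2 would be 1.03-fold and Cxcl3 1.05-fold of Control. With the Control shares and the IR levels they would be 1.92-fold and 4.58-fold, and the measured folds were 2.34 and 4.52, nearer to the latter. The mixed class was counted as a gate here. In IR, 15369 of its 34566 Cxcl2 UMIs and 1771 of its 2968 Cxcl3 UMIs lay in 81 cells of the S100a9 cluster. More such cells in that class count as a higher level and not as a larger share. The 1.03-fold and 1.05-fold thus hold for these gates only, and the arithmetic was not run over clusters. Cxcl1 was 1.46-fold with the shares alone and 1.39-fold with the levels alone, where the fibroblast gate's share of UMIs was 4.97% in Control and 10.1% in IR. Cxcr2 was 4.198-fold with the shares and 2.83-fold with the levels, the latter including the mixed class. Cxcr4 moved in opposite directions, 1.15-fold with the shares and 0.853-fold with the levels. The IR shares joined fewer macrophages to more monocytes and neutrophils, of which the latter 2 carried more Cxcr4.

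The genes whose levels were most like each member were found over 16 populations, 8 gates in 2 libraries, which share libraries and depth. Each gene named for Cxcl1 was highest in the fibroblast gate, and each gene named for the other members in the neutrophil gate. Those are also the gates where the members were highest, and how far a single gate sets r was not tested. The ranks depend on the pseudocount: with 1 CPM in place of 10, 1 of the 3 genes named for Cxcl2 and for Cxcr2 stayed among the top 3, and 2 of 3 for the others. Cxcl1 was most like Snai1 (Pearson's r of log2 CPM plus 10, 0.95), a transcription factor of mesenchymal cells, Raet1e (0.94) and Rflnb (0.94). Cxcl2 was most like Ccr1 (0.98), C5ar1 (0.96) and Nlrp3 (0.96), a chemokine receptor, the receptor for complement C5a and the inflammasome sensor. Cxcl3 was most like Slfn1 (0.97), Il1a (0.97), which encodes interleukin-1 alpha, and A530064D06Rik (0.95). Cxcr2 was most like E230032D23Rik (0.99), H2-Q10 (0.97) and Ptgs2os2 (0.97), an RNA antisense to Ptgs2, each highest in the neutrophil gate. Cxcr4 was most like Srgn (0.94), the proteoglycan serglycin of granules, Apbb1ip (0.94) and Vasp (0.94), which act in cell adhesion and actin assembly. Among the members, Cxcl2 had r of 0.79 with Cxcl3, 0.81 with Cxcr2 and 0.79 with Cxcr4, and Cxcl1 was apart from the other ligands, with r of −0.23 with Cxcl2 and −0.06 with Cxcl3.

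The other ligands of CXCR2 gave few UMIs. Ppbp, the platelet chemokine CXCL7, had 81 UMIs in Control and 102 in IR over all cells, 2.17 and 3.05 CPM. Most of its UMIs lay in the macrophage gate, 79 in Control and 70 in IR. The log2 ratio of its CPM in that gate was 1.84 (1.35 to 2.32), past a fold of 2. The monocyte gate had 0 and 25 UMIs of Ppbp. Over all cells, Cxcl5 had 1 and 5 UMIs and Cxcl15 0 and 3, while Cxcr1, the other receptor of this family, had 0 and 10. Of the CXCL12 side, Cxcl12 itself had 78 UMIs in Control and 2 in IR, a log2 ratio of −5.13 (−8.20 to −3.23), and Ackr3, its scavenging receptor, was at 11.3 and 26.0 CPM. Mif, another ligand of CXCR4, was level at 901 and 887 CPM.

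Among 8 further neutrophil attractants and their receptors, 4 were past a fold of 2 in the IR direction over all cells and 0 in the other, beside 5.89% and 2.61% of all genes. Named after their values were seen, the 4 were Fpr1, Fpr2, Csf3 and Csf3r. Of the members of that list with the most UMIs, Ltb4r1, the leukotriene B4 receptor, was at 109 and 149 CPM, C5ar1 at 119 and 137 CPM, Ptafr, the receptor of platelet-activating factor, at 60.2 and 102 CPM and Fpr2, a formyl peptide receptor, at 14.3 and 38.7 CPM. In the neutrophil gate 0 of the 6 with enough UMIs were past the fold in the IR direction and 1, Csf3r, in the other, at 1468 CPM in Control and 636 CPM in IR, beside 12.1% and 13.7% of all genes there. Csf3r is a marker used by the gate, so its level there is a description. In the monocyte gate 2 of 8, Fpr1 and Csf3, were past the fold in the IR direction and 1, Il17a, in the other. The shares of all genes there were 3.34% and 1.41%. In the macrophage gate 3 of 8, Fpr1, Fpr2 and Csf3, were past it and 0 in the other direction, beside 3.22% and 5.06% of all genes. These names too were given after their values were seen, and Csf3 in the monocyte gate had 1 UMI in Control.

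Of 8 NF-kB response genes, 3 were past the fold in the IR direction over all cells and 0 in the other, with a list median of 0.83 on the log2 scale, beside −0.00 for all genes. Il1b, which encodes interleukin-1 beta, was at 992 CPM in Control and 2319 CPM in IR (1.23, 1.21 to 1.24). Nfkbia, the NF-kB inhibitor, was at 661 and 1276 CPM (0.95), Ptgs2, the inducible cyclooxygenase, at 206 and 336 CPM (0.71) and Tnfaip3, the inhibitor A20, at 222 and 234 CPM (0.08). In each of the neutrophil, monocyte and macrophage gates 2 of the 8, Tnf and Il1a, were past the fold and 0 in the other direction, those names being given after their values were seen. The shares of all genes past it in the IR direction were 12.1%, 3.34% and 3.22% in these gates. The list thus held genes close to Cxcl3 in ratio and genes that hardly differed.

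Of 6 genes for proteins that act on chemokine mRNA decay, 0 were past the fold in either direction over all cells. The same was true of those with enough UMIs in the monocyte and macrophage gates (6 of 6) and in the neutrophil gate (4 of 6). The shares of all genes past it, in the IR direction and in the other, were 5.89% and 2.61% over all cells. They were 3.34% and 1.41% in the monocyte gate, 3.22% and 5.06% in the macrophage gate and 12.1% and 13.7% in the neutrophil gate. At such shares a count of 0 among so few genes says little about them. Zfp36, the destabilizing protein tristetraprolin, was at 616 CPM in Control and 645 CPM in IR, Zfp36l2 at 399 and 381 CPM, Zfp36l1 at 232 and 199 CPM and Elavl1, which encodes the stabilizing protein HuR, at 91.2 and 85.4 CPM. Among genes of neutrophil maturity and ageing, the adhesion molecule Icam1 was at 81.2 CPM in Control and 102 CPM in IR over all cells. The collagenase Mmp8 was at 8.57 and 15.3 CPM and the neutrophil surface protein Cd177 at 3.61 and 9.62 CPM. Most of these UMIs lay outside the neutrophil gate, which held 11 and 135 of Icam1, 5 and 51 of Mmp8 and 1 and 26 of Cd177. The monocyte gate held 115 of 135 Cd177 UMIs in Control and 227 of 322 in IR, at 26.2 and 19.9 CPM. These sums are thus not a reading of neutrophils. In the neutrophil gate the granule genes Camp, Ltf and Ngp together had 1 UMI in Control and 9 in IR.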

How the data were processed

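Sequenced cells came from CD45-sorted MC38 tumors, 1 Control and 1 IR library (10x Chromium 3' kit). The authors deposited UMI counts per gene and barcode, unfiltered, with 1067746 barcodes in Control and 990007 in IR. The submitters' processing notes name Cell Ranger 6.0.1 and mm10, while the file headers name an earlier release.

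Barcodes with at least 500 UMIs and 200 genes and at most 25% mitochondrial UMIs were kept, and likely doublets, the top 6% of each library by Scrublet score, were taken out with scanpy 1.11.5, 303 and 215 cells. The study used DoubletFinder. A gate was the marker list with the highest score. Each marker's log level was divided by its 90th percentile among cells with it, capped at 1 and averaged, with at least 2 markers and a score of at least 0.15. Cells that also scored 0.25 for another family (monocyte and macrophage being 1 family) were mixed. These scores were set after the data were seen, and 309 of 8103 cells lay within 0.02 of the limit of 0.15. UMIs were summed per gate and library as CPM. With 1 library per group there was no test. Counts have exact Poisson, shares exact Clopper-Pearson and ratios exact conditional intervals. A gene was past the fold at a log2 ratio of at least 1 in size with at least 20 UMIs, a count of 0 entering as 3. Ratios, thinning and gates were checked on simulated data.

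Clusters used 2000 variable genes without the members, 40 components and resolution 0.8. The named genes are the 5 members, the 3 genes most like each (at least 200 UMIs, populations of at least 30 cells, without mitochondrial, sex-linked and marker genes) and up to 4 per list with the most UMIs. The members and lists were chosen with earlier results of these data known. Alternatives covered cell filters, doublets, gates, clusters, scaling (TMM, edgeR 4.0.16), cell weights, free RNA, thinning and pseudocount. Cxcl1, Cxcl2 and Cxcl3 are paralogs, and reads lost between them were not measured. Protein sequences were not used here. Of the neutrophil maturity list, 1 gene and the counts that include it are not reported here.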

Additional observations from a re-analysis of the deposited data

Results flagged for a closer look

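Some members went in opposite directions in different gates, and with 1 library per group the difference between gates was not tested. Cxcr4 had log2 ratios (IR over Control) of −1.18 in dendritic cells, −0.56 in macrophages and −0.17 in monocytes. It was at 0.56 in T cells and 1.06 in mast cells or basophils. The dendritic gate was mostly cells of the cluster led by Fscn1. Cxcl2 was at −0.54 in NK cells and at 2.77 in dendritic cells, 1.60 in T cells, 1.43 in monocytes, 0.83 in neutrophils, 0.66 in macrophages and 0.61 in the fibroblast gate. By clusters the values in dendritic and T cells were 1.40 and 0.98, and in NK cells the sign turned (0.40) without a mixed class. Cxcl3 was at −0.80 in NK cells and at 4.28 in T cells, 2.24 in macrophages, 2.16 in monocytes and 1.49 in neutrophils. By clusters the T cell value was 1.98 and the NK cell value 0.51.

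Barcodes with 10 to 100 UMIs, which hold mostly free RNA and were used above only to estimate it, also had more of the ligands in IR. The log2 ratio there was 1.16 for Cxcl1, 0.94 for Cxcl2, 2.93 for Cxcl3 and 1.90 for Cxcr2, the last from 6 and 16 UMIs. Cxcl2 was at 1742 CPM in these barcodes in Control and 3339 CPM in IR. In cells with markers of more than 1 lineage, Cxcr2 had a log2 ratio of 3.83, and their part in the all-cell level was 11.8% of its UMIs in Control and 42.2% in IR.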

How the results depend on the processing

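No paired analysis was possible because each group had 1 library. Of 285 log2 ratios under the alternatives, 272 kept the sign of the reported value and 19 moved by more than 1.5-fold. Dropping the mitochondrial limit or asking for 1000 UMIs moved none of 31 ratios out of its interval. Giving each cell the same weight moved the all-cell ratios to 0.49 for Cxcl1, 1.74 for Cxcl2, 2.53 for Cxcl3 and 0.22 for Cxcr4, and Cxcl1 in the fibroblast gate to 1.21. Keeping doublets gave 1.24 for Cxcl2 and 2.26 for Cxcl3 over all cells. Cxcl2 in the neutrophil gate was 1.009 with doublets kept, 0.41 by clusters, 1.08 with TMM, 0.71 with equal cell weights, 0.76 with free RNA subtracted and 0.73 with a mixed class from a score of 0.15. Cxcl2 in the monocyte gate was 1.35 by clusters, 1.56 with a stricter gate, 1.47 with TMM, 1.54 without a mixed class and 1.38 with a mixed class from 0.15, and Cxcl3 there was 2.81 with the stricter gate. The alternatives on the mixed class were chosen after seeing the data. Of the ratios whose interval did not hold 0, those that changed sign were Cxcl2 in NK cells without a mixed class (0.40), Cxcl3 in NK cells by clusters (0.51) and Cxcl2 in the fibroblast gate with equal cell weights (−0.73), and the cause was not tested. The other changes of sign were in ratios whose interval held 0, among them Cxcr2 in macrophages (0.94 to −0.28 by clusters) and in mast cells or basophils (−0.04 to 0.76 with a mixed class from 0.15). Between 1 and 3 members were at least 2-fold higher in macrophages over the settings. The share of all genes, 3.22% in the main setting, was not taken under the other gates and cell filters. By clusters, Cxcl1 in macrophages was 0.12, Cxcl2 in dendritic cells 1.40 and in T cells 0.98, and Cxcl3 in T cells 1.98. Cxcl2 in dendritic cells was 3.87 with free RNA subtracted, and in T cells 0.76 with the stricter gate. Cxcl1 in monocytes ran from −0.55 by clusters to 4.13 with the stricter gate. With at least 100 UMIs per gene, 9.77% and 5.15% of genes in the neutrophil gate were past the fold. With a pseudocount of 1 CPM, 1 of the 3 genes most like Cxcl2 and 1 of those most like Cxcr2 stayed, and 2 of 3 for each other member. Free RNA was not subtracted over all cells. The few Control neutrophil-gate cells limit the depth. Only 5 of them reached 2000 UMIs, and thinned to that depth 1 held Cxcl3 (interval 0.505% to 71.6%), against 86 of 103 IR cells (83.5%).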

Other observations

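Ligand UMIs were also found outside the gates compared. The B cell gate held 16 Control and 8 IR cells. Cxcl1 had 28 UMIs, Cxcl2 177 and Cxcl3 38 in the Control cells, and each had 0 in IR, where 3 UMIs would be 99.6 CPM. In Control 1 cell (6.25%) carried all the Cxcl1 and Cxcl3 UMIs and 2 cells (12.5%) the Cxcl2, and the monocyte marker list summed to 4839 CPM in this gate. Cells that no marker list placed held 22.7% of the Cxcl3 UMIs of Control and 8.76% of those of IR, with levels of 409.9 and 1027 CPM. Their Cxcl1 was at 17.4 CPM in Control and 104 CPM in IR.

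Basophils and mast cells, which shared a gate, differed in Cxcl2. In the cluster led by Ccl3, with the basophil protease Mcpt8 among its leading genes, Cxcl2 was at 9647 CPM in 32 Control cells and 12089 CPM in 52 IR cells, and Cxcr2 had 8 and 20 UMIs. In the cluster led by the mast cell protease Mcpt2, Cxcl2 had 0 UMIs in 10 Control cells and 11 UMIs in 16 IR cells.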
